A study of Mus musculus with 8 samples.

Results

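Myeloid C-type lectin receptors were examined in hematopoietic stem cells of mice treated with G-CSF, granulocyte colony-stimulating factor, which raises neutrophil output. The genes were Clec4e, Clec5a, Clec4d, Clec4n, Clec7a, Clec12a, Clec4a2 and Clec1b, which are 8 of the 19938 genes measured. They were chosen by name, as receptors of this family, once results of these arrays were known, among them that of Clec4e. The rule kept the brightest probe set of a gene over all 8 arrays, but each of the 8 genes had 1 probe set, so no choice was made by level. Because the call of Clec4e was known beforehand, its difference is given here as a description.

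The cells were KSL SLAM cells sorted from bone marrow, defined by c-Kit, Sca-1 and CD150 and by lacking CD48, CD41 and lineage markers. G-CSF was injected subcutaneously (125 mcg per kg, 2 times a day), controls received PBS, a buffered saline, and the labels give 36 h for both. There were 4 G-CSF and 4 PBS samples, described as independent, each with cells pooled from 5 to 10 mice and hybridized to 1 MoGene 1.0 ST array. The labels used here name no strain, age or genotype. Since mice were pooled, the spread between arrays is that between pools. Values are log2 of the deposited intensity, and a difference is the G-CSF mean minus the PBS mean.

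C-type lectin receptors of myeloid cells recognise sugars, lipids and products of damaged cells at the cell surface. The activating receptors signal through the kinase Syk, and several of them through the adaptor Card9 as well. They use a motif in their own tail or the paired adaptors Fcer1g and Tyrobp, and can induce cytokines and the respiratory burst. The inhibitory receptors recruit phosphatases instead. Neutrophils, monocytes, macrophages and dendritic cells are the cells in which these receptors are chiefly known, apart from Clec1b, a receptor of platelets.

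All 8 genes lie on mouse chromosome 6, and 7 of them had a promoter in the RefSeq table used (GRCm38.p6), from 250 bases before to 50 bases after the gene's start. Clec4n had none in that table. The promoters of Clec4e, Clec5a and Clec4d are shown, since the groups of arrays did not overlap for the first pair and did for Clec4d, the neighbour of Clec4e. Capitals mark matches, on either strand, to TTNNGNAA, a loose C/EBP pattern, and to GAGGAA, a core of PU.1 sites.
Clec4e, chr6:123289822-123290121, minus strand: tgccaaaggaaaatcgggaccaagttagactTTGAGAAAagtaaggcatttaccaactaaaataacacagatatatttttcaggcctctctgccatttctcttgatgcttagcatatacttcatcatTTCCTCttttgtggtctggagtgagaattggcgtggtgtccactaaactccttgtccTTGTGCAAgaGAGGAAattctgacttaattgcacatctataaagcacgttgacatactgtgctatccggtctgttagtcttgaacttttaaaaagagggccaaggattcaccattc
Clec5a, chr6:40585756-40586055, minus strand: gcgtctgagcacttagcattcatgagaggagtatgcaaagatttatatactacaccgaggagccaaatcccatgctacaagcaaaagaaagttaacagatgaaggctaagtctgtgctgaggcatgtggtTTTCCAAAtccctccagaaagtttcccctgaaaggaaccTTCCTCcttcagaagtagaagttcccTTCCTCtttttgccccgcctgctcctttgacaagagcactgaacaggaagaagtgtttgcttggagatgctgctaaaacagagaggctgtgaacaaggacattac
Clec4d, chr6:123261857-123262156, plus strand: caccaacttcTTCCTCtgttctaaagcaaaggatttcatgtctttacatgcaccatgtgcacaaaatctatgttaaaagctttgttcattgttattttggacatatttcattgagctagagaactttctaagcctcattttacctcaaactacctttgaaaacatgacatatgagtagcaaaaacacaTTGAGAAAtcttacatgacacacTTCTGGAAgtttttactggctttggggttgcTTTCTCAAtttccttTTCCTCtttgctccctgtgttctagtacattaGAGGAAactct
The Clec4e promoter held 2 matches to each pattern, one pair of which, TTGTGCAA and GAGGAA, began 66 and 56 bases before the start. The Clec5a promoter held 1 match to TTNNGNAA and 2 to GAGGAA, and that of Clec4d held 3 of each. Over the 7 genes, 5 had a match to TTNNGNAA and 5 to GAGGAA in at least 1 promoter, whereas 44.1% and 31.3% of the 27025 genes in the table did (40.7% and 28.3% of all 32851 promoters). A match to TTCNNNGAA, the STAT pattern, stood in 1 of the 7, that of Clec4a2, against 9.55% of genes (8.3% of all promoters). A match to an NF-kB pattern (GGG, any 2 bases, TTTCC) was in none of the 7, against 1.89% of genes (1.63% of all promoters). The Clec1b promoter held no match to any of the 4 patterns. Clec4e and Clec4d carried the same 2 kinds of match, as did Clec5a and Clec12a. These matches describe the letters only.

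Of the 8 genes, 1 was higher after G-CSF at an adjusted p under 0.05 (limma, Benjamini-Hochberg over the 19938 genes), and 0 were lower. Over all genes 0.0953% were called higher and 0% lower. At an unadjusted p under 0.05, 3 of the 8 were higher and 0 lower. Of all 19938 genes, 1211 were higher and 586 lower at that p, which is 9.01% in either direction. The 4 G-CSF values lay above all 4 PBS values for 2 of the 8, Clec4e and Clec5a, and this held for 3.37% of all genes. None of the 8 had all G-CSF values below all PBS values, and over all genes 6.15% were apart in one direction or the other. The median log2 fold change of the 8 was 0.67, against -0.07 over all genes. It was 0.39 without PBS replicate 2, 0.39 without G-CSF replicate 1, 0.44 without G-CSF replicate 2 and 1.13 without G-CSF replicate 3. Since the family was chosen with the call of Clec4e known, nothing is read from these shares.

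**Figure D1:**
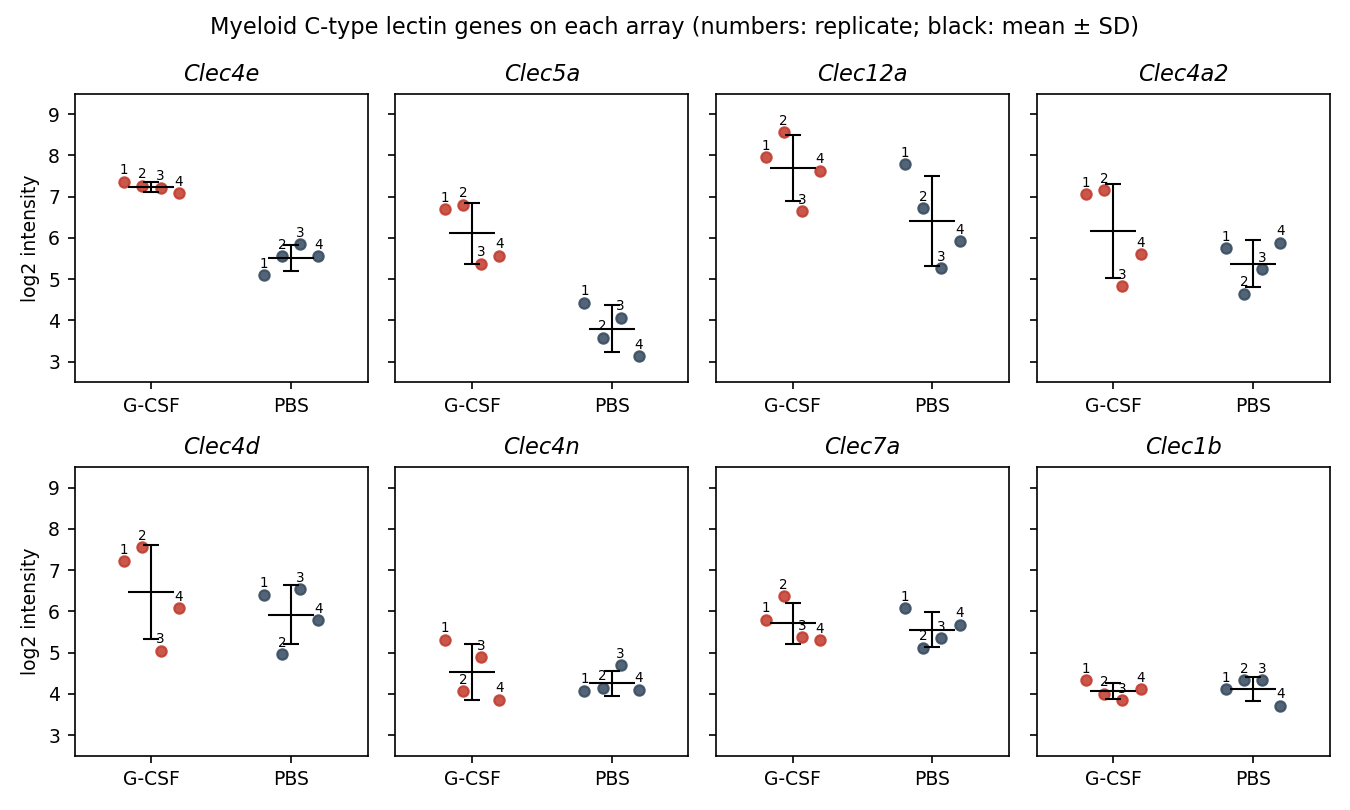
Log2 intensity (y axis) of each of the 8 genes on the 4 G-CSF arrays, at the left of each panel, and the 4 PBS arrays, at the right. Points are arrays with their replicate number, and black marks show the mean and SD. The groups are apart for Clec4e and Clec5a and overlap for the other 6 genes.

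Clec4e encodes Mincle, an activating receptor for mycobacterial cord factor and for products of dying cells, which signals through Fcer1g. Its probe set (10547664) had log2 intensities of 7.36, 7.27, 7.21 and 7.08 in G-CSF replicates 1 to 4, against 5.09, 5.55, 5.84 and 5.56 in PBS replicates 1 to 4. The G-CSF arrays lay within 0.28 of each other, and the lowest of them stood 1.23 above the highest PBS array. The means were 7.23 ± 0.12 after G-CSF and 5.51 ± 0.31 after PBS (SD, n = 4 each), a log2 fold change of 1.72 ± 0.19 SE, or 3.29-fold (95% confidence interval 2.46 to 4.39). The limma adjusted p was 0.00942. It was 0.0605 without G-CSF replicate 2, with a log2 fold change of 1.70, and 0.0661 when all 35556 probe sets entered the fit.

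Clec5a encodes an activating receptor, also called MDL-1, that pairs with Tyrobp and Hcst. Its probe set (10544273) read 6.69, 6.80, 5.38 and 5.57 in G-CSF replicates 1 to 4, against 4.43, 3.58, 4.06 and 3.12 in PBS replicates 1 to 4. The G-CSF arrays fell into a higher and a lower pair, and both lay above all PBS arrays, by at least 0.95. The log2 fold change was 2.31 ± 0.37 SE, or 4.96-fold (95% confidence interval 2.80 to 8.76), and it did not pass the threshold (limma adjusted p = 0.0582). With G-CSF replicate 3 left out it passed (limma adjusted p = 0.0392), as it did with PBS replicate 1 left out (0.0426). On the PBS arrays this probe set was dim, brighter than only 5.21% to 20.5% of genes.

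Clec4d, also called MCL, forms a complex with Mincle and shares its ligand and its adaptor Fcer1g. Its probe set (10541614) had log2 intensities of 7.22, 7.56, 5.05 and 6.07 in G-CSF replicates 1 to 4, against 6.40, 4.97, 6.53 and 5.78 in PBS replicates 1 to 4. Only G-CSF replicates 1 and 2 stood above all PBS arrays, and G-CSF replicate 3 was below 3 of them. The log2 fold change was 0.55 ± 0.52 SE, with a 95% confidence interval of -0.59 to 1.69 (limma adjusted p = 0.672). That interval includes no difference, and its upper end is close to the estimate for Clec4e. The estimate was 0.19 without G-CSF replicate 2, 0.31 without G-CSF replicate 1, 0.24 without PBS replicate 2 and 1.03 without G-CSF replicate 3.

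Other activating receptors are dectin-2, encoded by Clec4n, which binds fungal mannans and pairs with Fcer1g, and dectin-1, encoded by Clec7a, which binds beta-glucans and signals by its own tail. Clec4n (probe set 10541605) read 5.31, 4.06, 4.88 and 3.86 in G-CSF replicates 1 to 4, against 4.07, 4.14, 4.69 and 4.10 in PBS replicates 1 to 4. G-CSF replicates 1 and 3 were above every PBS array, while G-CSF replicates 2 and 4 were just below all of them or lower still. Its log2 fold change was 0.27 ± 0.31 SE (95% confidence interval -0.41 to 0.96, limma adjusted p = 0.716). With 1 array left out it lay between 0.014, without G-CSF replicate 1, and 0.50, without G-CSF replicate 4.

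Clec7a (probe set 10548375) read 5.80, 6.37, 5.38 and 5.30 in G-CSF replicates 1 to 4, against 6.08, 5.12, 5.35 and 5.68 in PBS replicates 1 to 4. The groups overlapped over most of their range, with G-CSF replicate 2 the highest and PBS replicate 2 the lowest. The log2 fold change was 0.16 ± 0.28 SE, and its 95% confidence interval, -0.46 to 0.77, lies below the estimate for Clec4e (limma adjusted p = 0.815). The sign turned without G-CSF replicate 2, where it was -0.064.

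Clec12a and Clec4a2 encode inhibitory receptors. Clec12a (probe set 10542164), a receptor for uric acid crystals on granulocytes and monocytes, had log2 intensities of 7.96, 8.56, 6.65 and 7.63 in G-CSF replicates 1 to 4, against 7.79, 6.71, 5.26 and 5.92 in PBS replicates 1 to 4. PBS replicate 1 was above 2 of the G-CSF arrays, so the groups overlapped. Its log2 fold change was 1.28 ± 0.52 SE, or 2.43-fold (95% confidence interval 1.10 to 5.36), with an unadjusted p of 0.0309 and an adjusted p of 0.517 (limma).

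Clec4a2 (probe set 10541587), the dendritic cell inhibitory receptor DCIR, read 7.06, 7.15, 4.83 and 5.60 in G-CSF replicates 1 to 4, against 5.74, 4.64, 5.24 and 5.88 in PBS replicates 1 to 4. As with Clec4d, only G-CSF replicates 1 and 2 exceeded all PBS arrays. Its log2 fold change was 0.78 ± 0.49 SE (95% confidence interval -0.29 to 1.86, limma adjusted p = 0.59). It was 0.45 without G-CSF replicate 2, 0.48 without G-CSF replicate 1 and 1.23 without G-CSF replicate 3.

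Clec1b encodes CLEC-2, the platelet receptor for podoplanin, an activating receptor that signals through Syk by its own tail. Its probe set (10542172) read 4.32, 4.00, 3.84 and 4.11 in G-CSF replicates 1 to 4, against 4.11, 4.33, 4.33 and 3.71 in PBS replicates 1 to 4. The groups overlapped, and on every array the probe set was among the dimmest 19.4% of genes. The log2 fold change was -0.05 ± 0.19 SE (95% confidence interval -0.48 to 0.38, limma adjusted p = 0.916). With a dim probe set, a change of the transcript may not be detectable on this array.

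The genes differed in how the 4 G-CSF arrays were ordered. For Clec4d, Clec5a, Clec12a and Clec4a2, replicate 2 was highest, followed by replicates 1, 4 and 3. The mean of 20 neutrophil markers had that order too, with 10.03, 10.09, 7.98 and 8.61 for G-CSF replicates 1 to 4, against 7.77, 6.90, 7.25 and 7.08 in PBS replicates 1 to 4. The order was not particular to neutrophil markers. It was also that of the means of monocyte and macrophage markers, basophil and mast cell markers, and the ligands and partners described below. Clec4e, Clec4n, Clec7a and Clec1b followed other orders.

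The neutrophil markers had a median log2 fold change of 1.78, all 20 positive, with 18 higher at an unadjusted p under 0.05 and 0 past the adjusted threshold (limma, lowest adjusted p = 0.0559). At that unadjusted p, 1211 of all 19938 genes were higher and 586 lower. Against 3.37% of all genes, 10 of the 20 neutrophil markers had all G-CSF values above all PBS values. Their brightest genes were S100a8, at 12.95 ± 0.40 after G-CSF and 12.02 ± 0.88 after PBS, S100a9, at 12.90 ± 0.41 after G-CSF and 11.92 ± 0.43 after PBS, and Lcn2, at 11.68 ± 0.92 after G-CSF and 9.36 ± 1.03 after PBS (SD, n = 4 each). Monocyte and macrophage markers had means of 7.87, 8.16, 6.93 and 7.56 in G-CSF replicates 1 to 4. In PBS replicates 1 to 4 the means were 8.11, 7.06, 7.01 and 6.86. PBS replicate 1 was also the highest PBS array for Clec12a and for the means of neutrophil, platelet and megakaryocyte, and erythroid markers. The monocyte and macrophage markers had a median log2 fold change of 0.28, with 5 of 21 higher at an unadjusted p under 0.05 and 0 adjusted. In these bulk samples more cells of a type and more RNA per cell cannot be told apart, and the part of other cell types in the differences of the lectin genes was not tested.

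**Figure D2:**
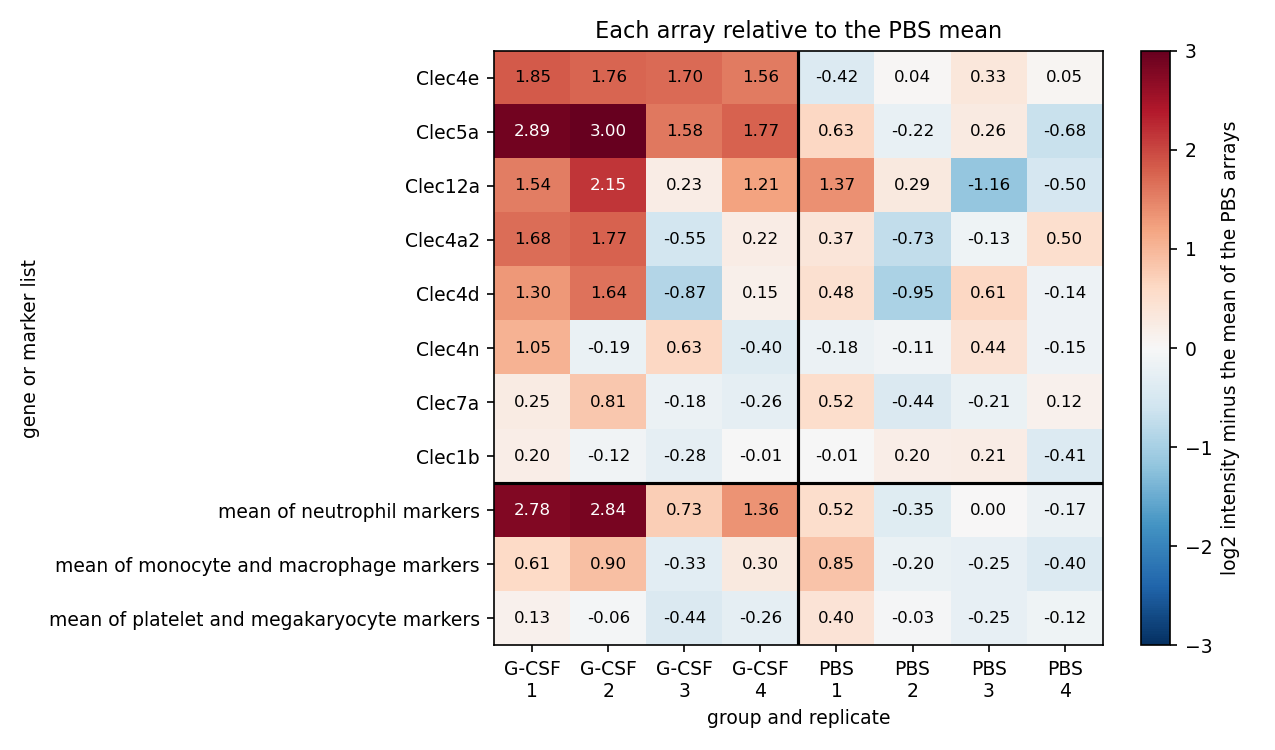
Log2 intensity of each gene, and mean log2 intensity of each marker list, minus its mean over the PBS arrays, by array (columns: G-CSF replicates 1 to 4, then PBS replicates 1 to 4). Clec4e has nearly the same value on all 4 G-CSF arrays. Among these arrays, Clec4e (by little), Clec5a, Clec12a, Clec4a2, Clec4d, Clec7a and all marker means shown are highest in replicates 1 and 2.

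The medians of the other marker lists lay between -0.25 and -0.04. Platelet and megakaryocyte markers, the lineage of Clec1b, had a median log2 fold change of -0.04 over 14 genes, with array means of 6.52 to 7.09 after G-CSF and 6.71 to 7.36 after PBS. The medians were -0.18 for 15 dendritic cell markers, -0.08 for 10 basophil and mast cell markers, -0.25 for 13 lymphocyte markers and -0.25 for 7 erythroid markers. Of these 5 lists 0 genes passed over all genes (limma). At an unadjusted p under 0.05, 1 platelet gene and 2 lymphocyte genes were lower, 1 dendritic cell gene and 1 basophil and mast cell gene were higher, and 0 erythroid genes passed. The platelet gene was Ppbp (-1.25 ± 0.37 SE), for which all G-CSF arrays lay below all PBS arrays, the lymphocyte genes were Ebf1 and Gzma, and the basophil and mast cell gene was Hdc. The dendritic cell gene was Clec10a, which is counted among the other C-type lectins too. The list of stem cell markers holds genes selected for, genes selected against and genes that the sort did not use, Cd34 among the last. This list had a median of -0.04, with 1 of 13, Cd34 (0.87 ± 0.35 SE), higher at an unadjusted p under 0.05 and 0 adjusted (limma). Cd48, whose protein the sort selects against, was 7.84 ± 0.79 after G-CSF and 7.19 ± 0.44 after PBS, and Itga2b, which encodes CD41, was 7.50 ± 0.25 after G-CSF and 7.39 ± 0.33 after PBS (SD, n = 4 each). Kit, one of the genes that define the sort, was 10.35 ± 0.12 after G-CSF and 10.70 ± 0.20 after PBS, and Slamf1, which encodes CD150, was 6.78 ± 0.52 after G-CSF and 6.62 ± 0.55 after PBS (SD, n = 4 each). Ly6a, the gene of Sca-1, was not analysed here.

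The genes that carry the signal of these receptors were examined next. None of 40 measured signalling genes passed over all genes (limma). At an unadjusted p under 0.05, 5 were higher and 0 lower, against 1211 higher and 586 lower of all 19938 genes. The median log2 fold change of the 40 was 0.26, against -0.07 over all genes and 0.13 over the 9969 brighter genes. The signalling genes were bright, with array means of 6.70 to 7.39, where the array medians of all genes were 5.74 to 5.89. The paired adaptor Tyrobp had log2 intensities of 10.81, 10.77, 9.08 and 9.72 in G-CSF replicates 1 to 4, against 10.25, 9.03, 8.24 and 8.39 in PBS replicates 1 to 4. The paired adaptor Fcer1g, the partner of Mincle, read 10.93, 10.94, 9.77 and 10.24 in G-CSF replicates 1 to 4, against 10.71, 9.58, 8.83 and 9.42 in PBS replicates 1 to 4. In both adaptors PBS replicate 1 overlapped the G-CSF arrays.

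The log2 fold changes were 1.12 ± 0.48 SE for Tyrobp (adjusted p = 0.535) and 0.84 ± 0.39 SE for Fcer1g (adjusted p = 0.551, limma). The kinase Syk had 0.45 ± 0.27 SE and the adaptor Card9 0.26 ± 0.20 SE. Nearest to the threshold was Fgr, a Src family kinase of myeloid cells, with 1.65 ± 0.27 SE (limma adjusted p = 0.0639). Bcl10, which forms the signalling complex with Card9 and Malt1, had 1.04 ± 0.19 SE (limma adjusted p = 0.0832), and its values of 6.54, 6.52, 6.31 and 6.67 in G-CSF replicates 1 to 4 lay above the 5.51, 5.76, 5.06 and 5.54 of PBS replicates 1 to 4. Among the cytokines these receptors can induce, Il1b had 1.77 ± 0.46 SE (limma adjusted p = 0.298) and Cxcl2 1.28 ± 0.36 SE (limma adjusted p = 0.316). For both, the groups overlapped. The other cytokines of the list were Ccl3 (1.04 ± 0.66 SE), Tnf (0.35 ± 0.25 SE), Il10 (0.08 ± 0.19 SE), Cxcl1 (-0.12 ± 0.22 SE) and Il6 (-0.22 ± 0.23 SE).

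Of 19 ligands, co-receptors and transcription factors linked to these receptors, 0 passed over all genes (limma). At an unadjusted p under 0.05, 6 were higher and 1 lower, against 1211 higher and 586 lower of all 19938 genes. The lower gene was Pdpn, which encodes podoplanin, the ligand of CLEC-2 (-0.47 ± 0.21 SE, limma adjusted p = 0.546). The median log2 fold change of the 19 was 0.35, against 0.13 over the 9969 brighter genes. Bhlhe40, a transcription factor of activated myeloid cells, had 1.73 ± 0.35 SE (limma adjusted p = 0.147). The integrin chains Itgam and Itgb2, which together form the complement receptor of phagocytes, had 1.68 ± 0.38 SE and 1.24 ± 0.37 SE. Spi1, which encodes PU.1, had 0.79 ± 0.27 SE (limma adjusted p = 0.442). Itgam stands in the neutrophil list too.

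The lectin genes lie in clusters, and the RefSeq table gives their neighbours. From Clec4a1 to Clec4e there are 9 protein-coding genes in a row, all C-type lectins and all measured, and Clec4e, at the end of the row, was the 1 that passed. Besides the 4 genes already described, Clec4a3 had a log2 fold change of 0.59 ± 0.36 SE, Clec4b1 0.28 ± 0.30 SE, Clec4a1 0.26 ± 0.53 SE, Clec4a4 -0.22 ± 0.17 SE and Clec4b2 -0.26 ± 0.23 SE. The row from Clec12a to Olr1 holds 7 protein-coding genes, again all lectins and all measured. There, apart from Clec12a, Clec1b and Clec7a, the range was from -0.47 ± 0.26 SE for Clec9a, a receptor of cross-presenting dendritic cells, to -0.07 ± 0.18 SE for Olr1, the receptor for oxidised lipoprotein. Clec12a was the gene of that row with the highest estimate.

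**Figure D3:**
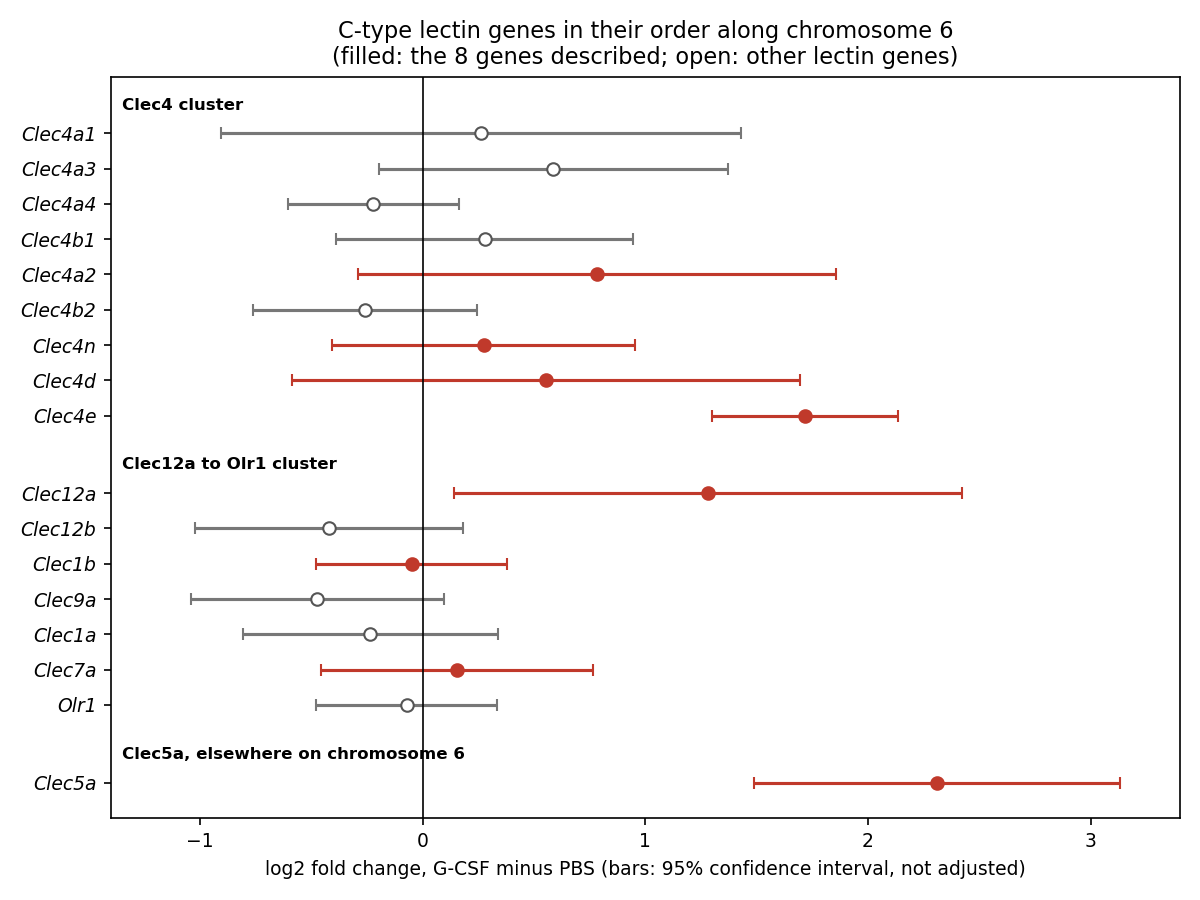
Log2 fold change, G-CSF minus PBS (x axis), of the genes of both lectin rows in their order along chromosome 6, and of Clec5a. Bars are 95% confidence intervals, filled points are the 8 genes described and open points the other lectin genes. The interval of Clec4e, 1.30 to 2.13, lies apart from 0, and so do those of Clec5a and Clec12a.

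Over the wider superfamily, 51 other C-type lectin genes were measured, and 0 passed over all genes (limma). At an unadjusted p under 0.05, 1 was higher and 2 lower, against 1211 higher and 586 lower of all 19938 genes. The median log2 fold change of the 51 was -0.08, close to the -0.07 of all genes. Clec10a, a galactose-binding lectin of macrophages and dendritic cells, had 1.12 ± 0.43 SE (limma adjusted p = 0.499). It read 4.26, 3.47, 5.85 and 5.17 in G-CSF replicates 1 to 4, against 3.92, 3.15, 3.60 and 3.60 in PBS replicates 1 to 4, so its highest arrays were those with the lowest neutrophil means of the group. On the PBS arrays this probe set was dim, brighter than only 4.985% to 12.74% of genes. On G-CSF replicates 1 and 2 it was brighter than 17.65% and 9.188% of genes. Cd209g had -0.41 ± 0.18 SE, the selectin Sele -0.49 ± 0.22 SE and the B cell lectin Cd72 -0.37 ± 0.18 SE.

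The genes whose profile over the 8 arrays lay nearest to that of Clec4e were found by the root mean square difference of mean-centred log2 values. The nearest 5 were Abca4 (0.24), Csf3r (0.24), Socs3 (0.31), DQ267102 (0.34) and Wfdc18 (0.34). The log2 fold changes of these 5 were 1.29 to 1.96, beside 1.72 for Clec4e. The measure includes the difference between the groups, which was known for Clec4e, so genes with a like rise come out near. Csf3r encodes the G-CSF receptor, Socs3 a feedback inhibitor of cytokine signalling, and Abca4 an ABC transporter. Csf3r is also one of the 20 neutrophil markers, with a log2 fold change of 1.29 ± 0.21 SE (limma adjusted p = 0.0585). Csf3r read 9.31, 9.49, 9.24 and 9.11 in G-CSF replicates 1 to 4, against 7.59, 7.96, 8.51 and 7.93 in PBS replicates 1 to 4, and in both genes PBS replicate 1 was the lowest array and PBS replicate 3 the highest PBS array. Among the other lectins of the 8, Clec5a came nearest, at 0.68, which was rank 498 of 19937 genes, and Clec4d was farthest, at 1.01 and rank 14062.

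One array, PBS replicate 3, was unlike the other 7, with an interquartile range of 1.68, against 2.42 to 2.80 in those, and with correlations of 0.883 to 0.903 with them, against 0.956 to 0.977 among the others. Without it, the log2 fold change was 1.83 for Clec4e (limma adjusted p = 0.0064), 2.40 for Clec5a (limma adjusted p = 0.107) and 0.90 for Clec12a (limma adjusted p = 0.661).

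**Figure D4:**
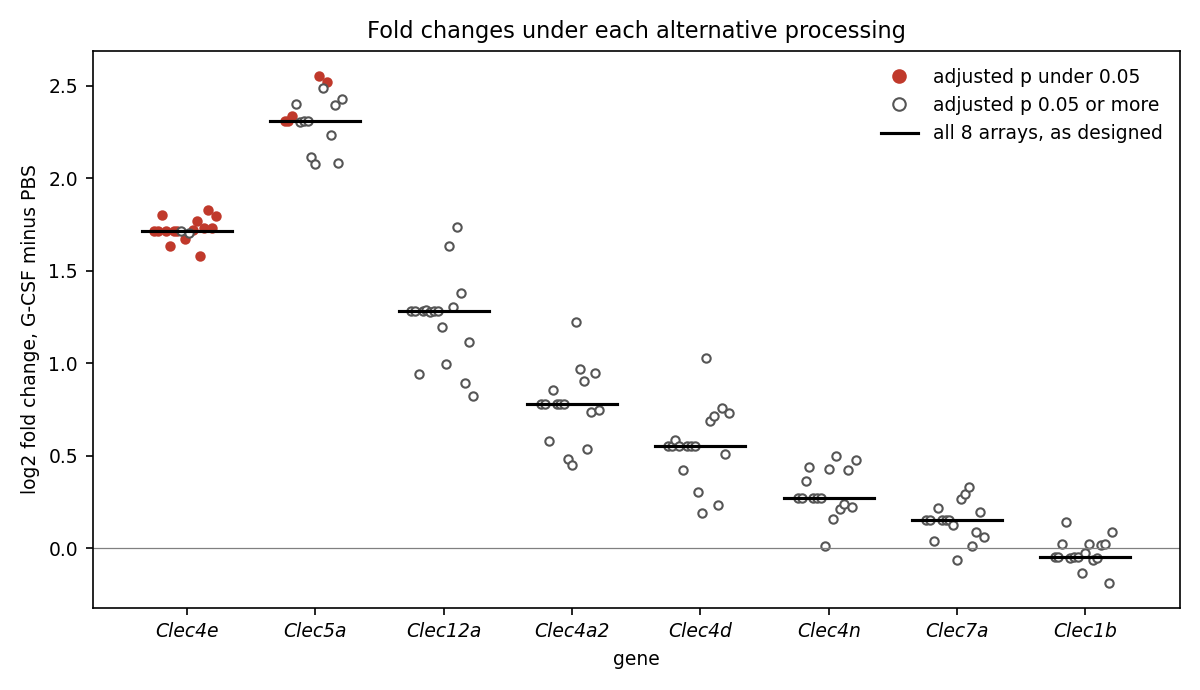
Log2 fold change, G-CSF minus PBS (y axis), of each of the 8 genes under each alternative processing. Points are alternatives, filled where the limma adjusted p was under 0.05, and the black line is the value with all 8 arrays as designed. Clec4e stays between 1.58 and 1.83 and passes in 15 of 17 alternatives, and Clec5a stays between 2.08 and 2.55 and passes in 5 of 16.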

How the data were processed

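RNA of 4 G-CSF and 4 PBS samples was measured on MoGene 1.0 ST arrays after purification on RNA XS columns and NuGen Ovation amplification, per the labels' protocols. The authors deposited, for each array, an intensity of every probe set, linear and between 2.15 and 16163. RMA is named in the submitters' processing notes; software, version and options were not given in the sources used. Log2 was taken before each test.

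Of 35556 probe sets, 21789 had 1 gene symbol in the platform annotation, 1621 several and 12146 none. Only those with 1 symbol were used, and where a gene had several (999 genes) the brightest was kept, which left 19938 genes. The 2-sided test was that of limma 3.58.1 (R 4.3.3), by lmFit and plain eBayes, and p-values were adjusted over the 19938 genes by Benjamini-Hochberg, with a threshold of 0.05. Confidence intervals of 95% are not adjusted for multiple genes. The fit was tested on simulated arrays with known differences and independent noise for every gene and array. These held no array like PBS replicate 3, so they cannot vouch for the calls made here. No scanner files were used, so there are no detection calls, and the number of arrays limits the precision.

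The 8 genes, the 11 other gene lists and the tests were chosen with earlier results of these data known. Lists are described by counts and medians, with no test. The rule for names takes all 8 genes, the 4 genes with the lowest p of each list that holds no cell type markers, Fcer1g, Tyrobp, Syk and Card9, up to 3 genes of each marker list, and the 5 genes nearest to Clec4e. Slamf1, Cd48, Itga2b, Cd34, Ppbp, Ebf1, Gzma, Hdc and the genes of the lectin rows were named besides, after their values were seen. So were Pdpn and the cytokines Ccl3, Tnf, Il10, Cxcl1 and Il6. The list of ligands held Sap130, which is not the gene of the Mincle ligand of that name. Alternatives changed the moderation, a block, array weights, a filter, the normalization, the probe sets and the arrays left out.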

Additional observations from a re-analysis of the deposited data

Results flagged for a closer look

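Dixon's ratio was computed for the G-CSF and the PBS arrays of 13 genes and 11 list means, 48 groups of 4 in all, of which chance flags about 1 in 20. It was above the 95% critical value for groups of 4 in 5. Clec4n was 4.69 in PBS replicate 3, away from the other PBS arrays, and Abca4 was 6.01 in the same array, which also stood apart over all genes. The mean of C-type lectin signalling genes was 7.29 in G-CSF replicate 3, below the other G-CSF arrays. The mean of monocyte and macrophage markers was 8.11 in PBS replicate 1, above the other PBS arrays, and that of dendritic cell markers was 5.88 in PBS replicate 4. The cause of these values was not tested.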

How the results depend on the processing

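Clec4e was higher after G-CSF in all 17 alternatives and passed the threshold in 15, with adjusted p between 0.00223 and 0.0661. The exceptions were all probe sets in the fit (log2 fold change 1.72) and G-CSF replicate 2 left out (1.70). Clec5a was higher in all 16 alternatives that held it and passed in 5, and Clec12a, Clec4a2, Clec4d and Clec4n kept their direction and passed in none. Of the 8 genes, 2 passed with trend and robust moderation, where 21 of all genes were higher, with array weights, and at an adjusted p under 0.1, where 52 of all genes (0.261%) were higher, 0 passed with all probe sets in the fit, and 0 to 2 with 1 array left out. Their median log2 fold change was 1.28 in the brighter genes, which hold 3 of the 8, and 0.39 to 1.13 with 1 array left out. Over all genes, 37 were higher and 3 lower with array weights, 7 higher after quantile normalization, 0 higher with all probe sets, and 1 lower when PBS replicate 3 was dropped before quantile normalization. With 1 array left out, 3 to 30 were higher and 0 to 2 lower. Clec1b had a positive value with array weights (0.021), after quantile normalization (0.14, or 0.087 when PBS replicate 3 was dropped first), and without G-CSF replicate 3, PBS replicate 2 or PBS replicate 3, and ranged from -0.19 to 0.026 with 1 array left out. Clec7a was negative without G-CSF replicate 2, and ranged from -0.064 to 0.33 with 1 array left out. The labels number the replicates of both groups, but same-numbered arrays correlated at -0.03, 0.06, 0.06 and 0.14 in their deviations from the group means, so the numbers were not taken as pairs. With the replicate block, 23 genes were higher and 0 lower, and 2 of the 8 lectin genes passed, Clec4e (adjusted p = 0.0335) and Clec5a (adjusted p = 0.0346). The cause of these shifts was not tested. Dim probe sets, those of Clec1b, Clec4n and, on PBS arrays, Clec5a, limit what can be seen.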
